A study of Rattus norvegicus with 18 samples.

Results

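Genes that stood below fresh air in each of the 9 rat lung samples exposed to the high dose of cigarette smoke are described here. Members were chosen from the high-dose log2 ratios themselves: a gene entered where all 9 ratios of smoke over air were present and below -0.05, after distinct probes of a gene symbol had been averaged. Of 3760 genes with 9 high-dose values, 78 met that threshold, which is 2.07% of them; 14 of the 78, among them Spon2, Cd3g and Nr1d1, were left out by name. The remaining 64 of the 4616 named genes on the arrays are the subject. Because the high-dose values selected them, their distance from air at that dose is given as a description, without a test.

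The samples were whole lungs of rats exposed by nose only to diluted smoke or to conditioned fresh air, 2 times 1 hour a day with a break of 30 min between, on 5 days a week. Each litre of smoke carried 300 µg of total particulate matter at the low dose and 600 µg at the high dose. Rats were exposed for 2, 7 or 13 weeks, and their lungs were taken after a further 2, 6 or 20 hours. Each of the 18 samples paired a pool of RNA from 4 smoke-exposed rats, labelled with the dye Cy5, with a pool from 4 fresh-air rats, labelled with Cy3, so each combination of dose, weeks and hours had 1 sample, and the labels name no strain, sex or age. Both doses of a combination were set against the same fresh-air pool, 9 such pools in all, and no dye swap was named, so a constant dye effect cannot be told apart from smoke in any ratio to air. A sample held values for 3919 to 4583 named genes with a median log2 ratio between -0.01 and 0.01. Precision is limited by the number of pools, and the ratios carry no absolute level, so the tissue label could not be checked against marker levels.

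As background, whole lung mixes alveolar and airway epithelium, blood vessel endothelium, fibroblasts that lay down collagen and elastic fibres, resident macrophages, and T, B and natural killer lymphocytes. Inhaled smoke draws macrophages and neutrophils into the air spaces and induces enzymes that detoxify it, changes that raise RNA of those cells and enzymes. T and B lymphocytes are known by their antigen receptors and co-receptors, and elastic fibres by fibrillin and elastin, which lysyl oxidases cross-link. In a bulk sample, fewer cells of a type and less RNA per cell cannot be told apart, and the ratios here have that limit.

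The displacements were small and spread over many functions. The members' mean high-dose log2 ratios had a median of -0.32, which is 0.803 times the level in air, and ran from -0.66 for Mal to -0.15 for Rabl6. A mean at or below -0.40 was found for 17 genes, a mean from there to -0.20 for 39 and a mean above -0.20 for 8. Single values varied more than the means did: 113 of 576 were below -0.50, and the range over the 9 samples went from 0.16 for Rabl6 to 1.12 for Ms4a1. At the low dose the same genes had a median mean of -0.17 (0.887 times air), from -0.49 for Lrrn3 to 0.02 for Bin1. Of their 576 low-dose values, 78.8% were below 0. All 64 genes had 9 low-dose values, and 11 lay below air in each of the 9. The shares over all genes were not counted, and both doses have the same fresh-air pools. These low-dose counts therefore cannot be read as particular to the members. In the opposite direction, 116 genes stood above 0.05 in all 9 high-dose samples.

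**Figure D1:**
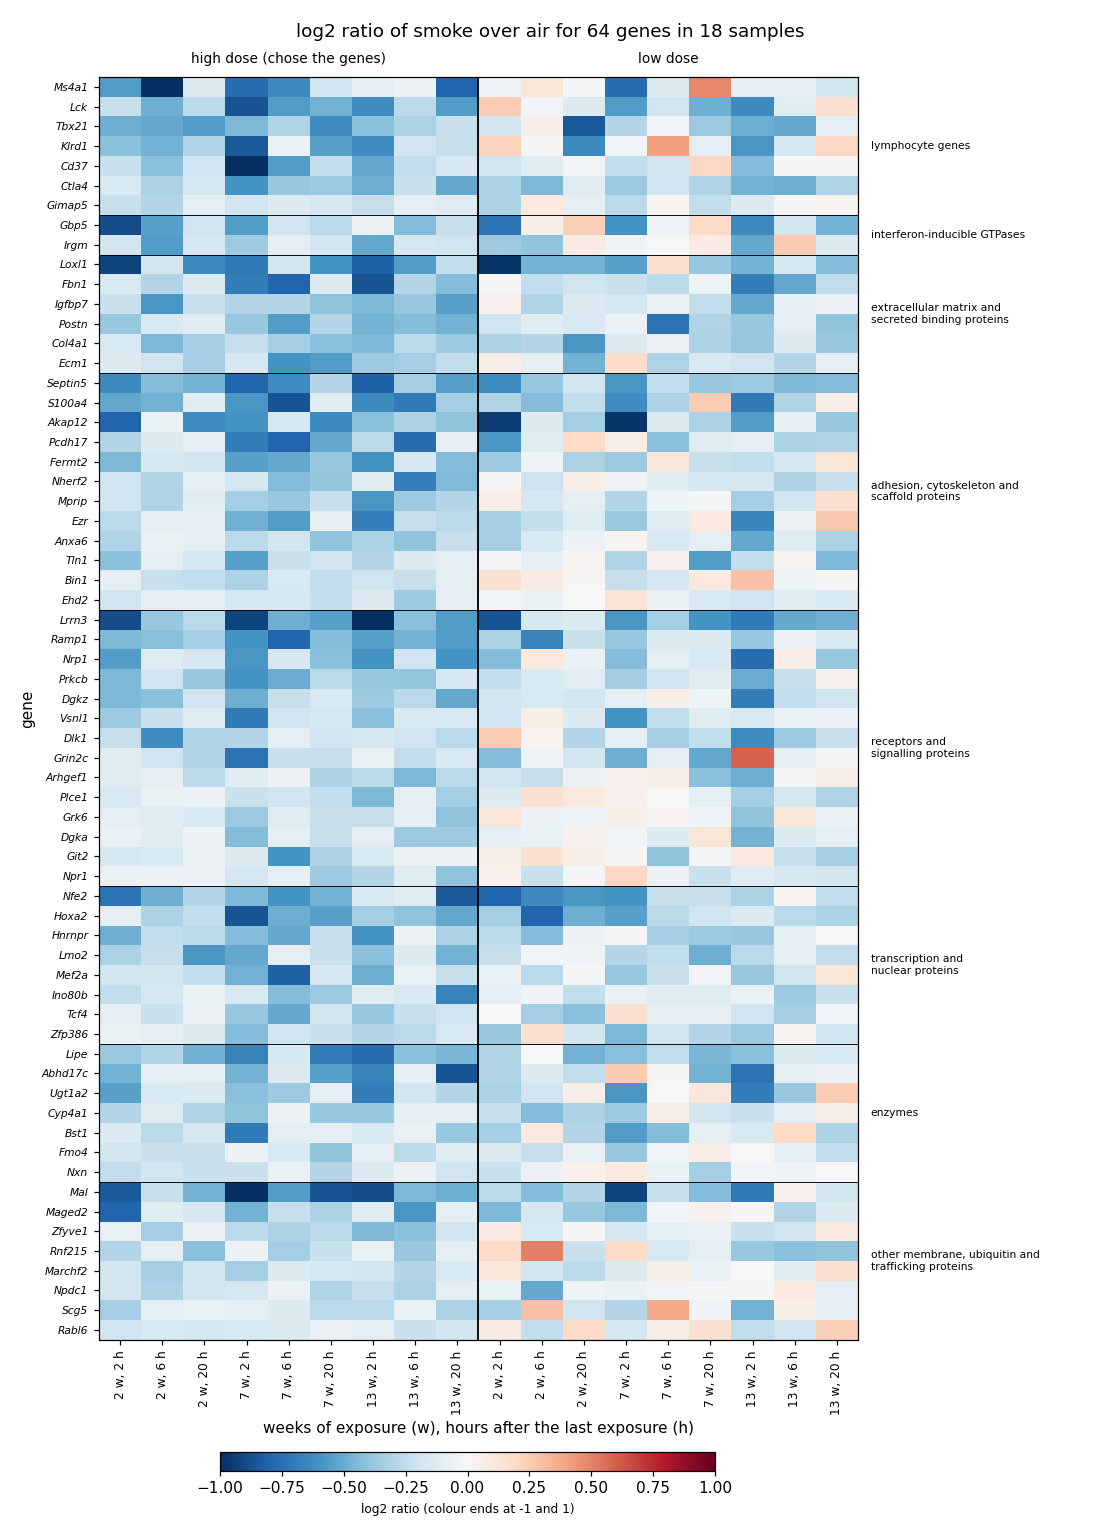
Colour shows the log2 ratio of smoke over air for 64 genes (vertical axis, grouped by role) in 9 high-dose and 9 low-dose samples (horizontal axis, weeks of exposure and hours after it). The left block is blue throughout since it chose the genes, with Ms4a1 reaching -1.18; the right block mixes blue with paler and red cells, up to 0.59 for Grin2c.

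For the low-dose samples, the mean of the 9 ratios was tested against 0 in every gene with at least 6 values, by limma with Benjamini-Hochberg adjustment over 4090 genes. Across those genes, 53 were called lower, 1.30%, and 139 higher. Among the members, 15 of 64 (23.4%) were called lower and 0 higher: Akap12, Col4a1, Ctla4, Fbn1, Hoxa2, Lipe, Lmo2, Loxl1, Lrrn3, Mal, Nfe2, Postn, Ramp1, Septin5 and Tbx21. At an unadjusted p under 0.05, in either direction, limma found 42 of the 64 and 777 of the 4090 (19.0%). The low-dose ratios have the same fresh-air pools as the ratios that chose the members, so the 2 doses are not independent and the larger share among members is not separate support for their choice. An exact sign-flip permutation test of the same 9 values, whose smallest possible p is 0.00391, called 0 of 3646 genes after adjustment and put 33 members under 0.05 before it. Removal of the samples of 1 exposure length left fewer member calls, namely 4, 5 and 3 when those of 2, 7 and 13 weeks were removed. Calls over all genes fell as well, to 26 (0.625%), 12 (0.291%) and 9 (0.222%). Removal of the 13 week, 2 hour sample alone left 9 members and 34 genes in all (0.842%).

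Loxl1, Septin5, Lrrn3, Ctla4, Hoxa2, Nfe2, Col4a1, Lipe and Akap12 passed in the low-dose limma test with any 1 of the 9 samples removed. Mal passed in 8 of those 9 fits, Ramp1 in 6, Postn in 4, Fbn1 in 3, and Lmo2 and Tbx21 in 2.

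Upstream sequence was set beside the values because the members were low together. All 64 genes matched RefSeq genes of assembly GRCr8, and 50 of them had an upstream sequence of full length. The 250 bases before the start of each of those 50 were searched for 8 motifs on both strands. The sequences of 5 members are shown in the direction of the gene, 4 of them as the lowest high-dose mean with an entry in a role group and Akap12 for its course over hours, with each motif match in capitals. Mal lies on the minus strand (chr3:135341424-135341673), as do Loxl1 (chr8:67612225-67612474) and Lck (chr5:147201268-147201517); S100a4 (chr2:178388279-178388528) and Akap12 (chr1:43135265-43135514) lie on the plus strand.
Mal: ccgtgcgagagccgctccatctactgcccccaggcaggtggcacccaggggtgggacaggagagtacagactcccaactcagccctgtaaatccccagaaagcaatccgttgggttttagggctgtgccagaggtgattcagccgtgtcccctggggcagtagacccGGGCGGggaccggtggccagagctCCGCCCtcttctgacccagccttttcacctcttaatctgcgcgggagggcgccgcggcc
Loxl1: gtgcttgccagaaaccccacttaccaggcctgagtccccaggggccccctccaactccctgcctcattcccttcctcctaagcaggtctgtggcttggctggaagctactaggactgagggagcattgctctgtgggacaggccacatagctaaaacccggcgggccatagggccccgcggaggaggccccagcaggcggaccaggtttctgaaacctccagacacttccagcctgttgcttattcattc
Lck: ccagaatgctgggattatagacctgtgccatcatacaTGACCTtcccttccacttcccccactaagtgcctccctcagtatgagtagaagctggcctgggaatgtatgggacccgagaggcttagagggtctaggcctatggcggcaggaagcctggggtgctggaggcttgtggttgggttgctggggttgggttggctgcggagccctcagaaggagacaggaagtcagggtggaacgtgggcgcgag
S100a4: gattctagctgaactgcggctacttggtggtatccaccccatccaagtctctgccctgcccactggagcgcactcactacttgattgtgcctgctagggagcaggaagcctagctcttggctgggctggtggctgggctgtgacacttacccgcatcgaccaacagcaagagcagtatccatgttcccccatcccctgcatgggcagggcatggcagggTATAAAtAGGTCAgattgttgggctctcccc
Akap12: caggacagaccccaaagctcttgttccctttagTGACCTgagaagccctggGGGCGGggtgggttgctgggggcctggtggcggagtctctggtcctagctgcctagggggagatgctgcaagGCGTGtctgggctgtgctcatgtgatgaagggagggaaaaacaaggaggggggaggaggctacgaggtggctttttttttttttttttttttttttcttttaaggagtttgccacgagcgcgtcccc

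Capitals mark the GC box GGGCGG, bound by factors of the Sp family, in Mal and Akap12, the TATA box TATAAA in S100a4, the core half-site AGGTCA of nuclear receptors in Lck, S100a4 and Akap12, and the xenobiotic response element core GCGTG, bound by the aryl hydrocarbon receptor, in Akap12. The upstream sequence of Loxl1 held none of the motifs searched. Over the 50 members, the GC box was in 56% and in 58.8% of the 3067 genes with 9 high-dose values and an entry. The CCAAT box CCAAT stood in 38% against 36.1%, TATAAA in 10% against 8.05%, and AGGTCA in 10% against 9.88%. GCGTG stood in 38% against 43.5%, and the ETS core CCGGAA in 18% against 21.3%. The E-box CACGTG was in 1 member, Ezr (2% against 7.66%), and the AP-1 site TGACTCA in 1, Ecm1 (2% against 3.39%). The motifs' letters do not contain one another. Median GC content was 59.2% for members and 60.4% for all genes. The ratio of observed to expected CpG dinucleotides was above 0.6 in 48% of the members and in 63.4% of all genes, with medians of 0.57 and 0.71. Values under 0.3 were those of Lck (0.29), Loxl1 (0.22), Ecm1 (0.25), Gbp5 (0.20), S100a4 (0.19), Postn (0.13), Cd37 (0.10), Gimap5 (0.06) and Dgkz (0.00). These shares are descriptions of the letters in 1 window and were not tested.

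Lymphocyte genes were 7 of the 64, and at the high dose their means had a median of -0.41 against -0.11 at the low dose. Ms4a1, which encodes the B cell surface protein CD20, had high-dose log2 ratios from -1.18 to -0.06 with a median of -0.56, a mean of -0.49 ± 0.39 (SD, n = 9). Its low-dose values ran from -0.76 to 0.48 with a mean of -0.08 ± 0.32, and the ranges of the doses overlapped. Its lowest high-dose value came from 2 weeks, 6 hours, and its highest from 13 weeks, 6 hours. Lck, the kinase that starts T cell receptor signalling, ran from -0.86 to -0.23 at the high dose (median -0.49, mean -0.48 ± 0.20, SD, n = 9), and from -0.64 to 0.25 at the low dose (mean -0.19 ± 0.31). Klrd1, which encodes the natural killer receptor chain CD94, ran from -0.84 to -0.07 (median -0.42, mean -0.41 ± 0.24), and at the low dose from -0.64 to 0.41 (mean -0.08 ± 0.35). These 3 genes were above air in some low-dose samples, and limma called none of them at that dose (adjusted p = 0.702, 0.246 and 0.737).

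Cd37, a tetraspanin of B cells, had 8 high-dose values between -0.56 and -0.17 and one of -1.03 at 7 weeks, 2 hours (mean -0.40 ± 0.28, SD, n = 9). Its low-dose values ran from -0.43 to 0.21 (mean -0.11 ± 0.18), and the high dose was the lower one in 9 of 9 combinations. Tbx21, which encodes the transcription factor T-bet of type 1 T cells and natural killer cells, was steadier, from -0.62 to -0.22 (median -0.45, mean -0.43 ± 0.13). Its low-dose values ran from -0.84 to 0.06 (mean -0.30 ± 0.28), and limma called the mean lower with adjusted p = 0.0488, a call kept in 2 of 9 fits with a sample removed. Ctla4, the inhibitory receptor of activated and regulatory T cells, differed from the other lymphocyte genes in having nearly the same means at both doses. Its high-dose values ran from -0.60 to -0.15 (mean -0.36 ± 0.16) and its low-dose values from -0.49 to -0.12 (mean -0.33 ± 0.12, adjusted p = 0.00259 by limma, below air in 9 of 9 samples). Gimap5, a GTPase needed for lymphocyte survival, was among the nearest to air, at -0.17 ± 0.07 and -0.10 ± 0.15.

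The rest of the lymphocyte markers were read from lists. Of 16 T and natural killer cell markers with 9 high-dose values, 5 met the threshold (Lck, Tbx21, Klrd1 and, left out by name, Cd3g and Prf1), and the list's median mean was -0.39 at the high dose and -0.08 at the low dose, against 0.00 and -0.00 over all genes. At the low dose limma called 2 of 16 lower, Tbx21 and the co-receptor Cd4, and 0 higher. Of 5 B cell markers with 9 values, 2 members (Ms4a1 and Cd37) and Cd79b of the B cell receptor had means of -0.40 or lower, while the kinase Blk stood at -0.24 ± 0.24 and the transcription factor Pax5 at -0.00 ± 0.12. The list's medians were -0.40 and -0.08, and 0 of 7 markers passed at the low dose. Cd27, a T cell co-stimulatory receptor, went the other way, at 0.20 ± 0.16 and 0.13, and Zap70, the kinase that acts after Lck, stood at -0.04 ± 0.20. Of the family of Gimap5, Gimap1, Gimap6, Gimap7, Gimap8 and Gimap9 had high-dose means between -0.31 and -0.15 and failed the rule on at least 1 sample.

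**Figure D2:**
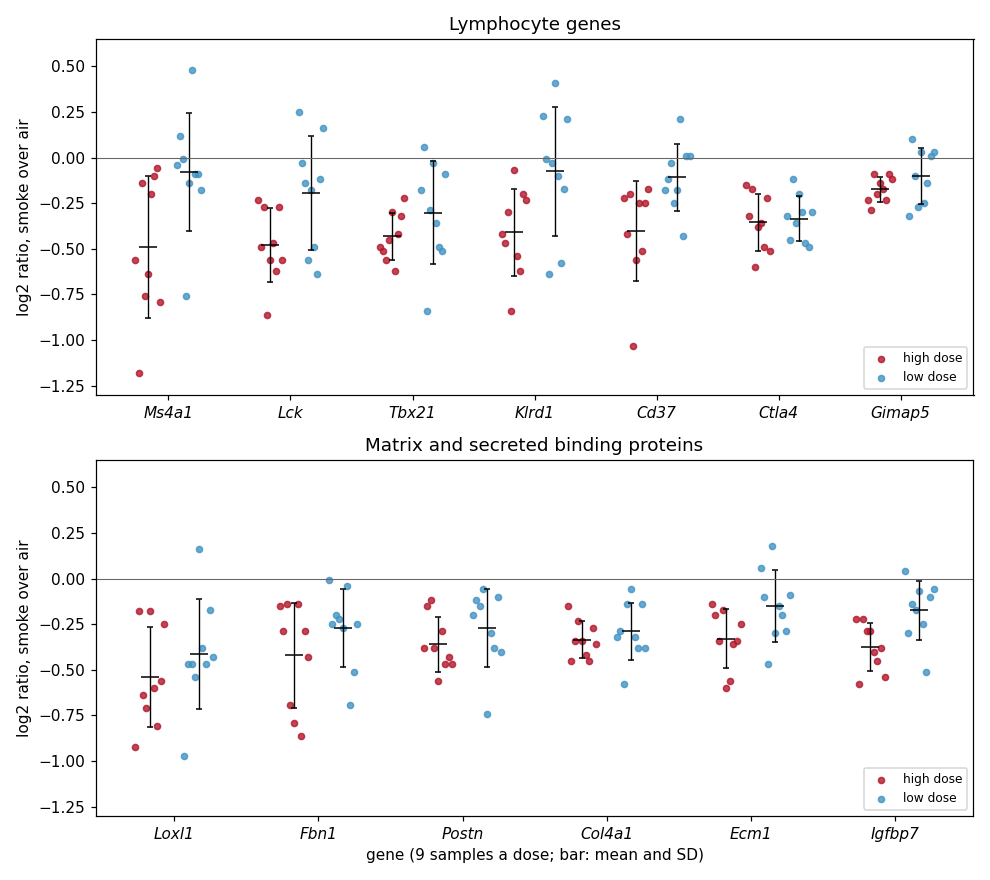
Each point is the log2 ratio of smoke over air in 1 sample (9 a dose, vertical axis) for 7 lymphocyte genes and 6 matrix or secreted binding proteins (horizontal axis); bars are means and SD. High-dose points lie below 0 by choice of the genes; low-dose points of Ms4a1, Lck, Klrd1 and Cd37 lie on both sides of 0, while those of Ctla4, Fbn1, Postn and Col4a1 lie below it.

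Lists of cell markers were read in the same samples. Of 15 macrophage and monocyte markers with 9 high-dose values, 12 had means above 0, and the median of the list ran from 0.15 to 0.81 over the high-dose samples and from 0.00 to 0.57 over the low-dose samples. The median of 8 type 2 alveolar cell markers ran from 0.16 to 0.71 and from 0.02 to 0.43. T and natural killer cell markers ran from -0.56 to -0.09 and from -0.47 to 0.16, and fibroblast markers from -0.42 to -0.13 and from -0.36 to 0.00. Both of these lists hold members, which the rule placed below air at the high dose, so their high-dose medians are partly set by the choice. Endothelial markers, with no member among them, ran from -0.27 to -0.05 and from -0.24 to 0.02. Type 1 alveolar cell markers, also without a member, ran from -0.30 to 0.03 and from -0.18 to 0.01. The part of those shifts in the members' values was not tested.

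Interferon-inducible GTPases gave 2 members. Gbp5, which acts at the vacuoles of intracellular pathogens, ran from -0.89 at 2 weeks, 2 hours to -0.06 at 13 weeks, 2 hours at the high dose (median -0.27, mean -0.38 ± 0.26, SD, n = 9), and from -0.74 to 0.24 at the low dose (mean -0.24 ± 0.38). Irgm, an immunity-related GTPase of autophagy, stood at -0.27 ± 0.17 and -0.11 ± 0.26. The related GTPases Gbp4 and Igtp stood at -0.35 ± 0.30 and -0.31 ± 0.28 at the high dose, each with at least 1 sample above air. On a list of interferon response and antigen presentation, which did not hold Irgm, Gbp5 alone of 19 genes with 9 values was a member. The list's median was -0.02, and at the low dose limma called 0 of 22 lower and 3 higher.

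Matrix genes were grouped after their values were seen. The 6 genes of the extracellular matrix and secreted binding proteins had a median mean of -0.37 at the high dose and -0.27 at the low dose. At the low dose 4 of the 6 were called lower, against 15 of 64 members (23.4%) and 53 of 4090 genes (1.30%). Nuclear proteins stood at -0.32 and -0.21 with 3 of 8 called, and enzymes at -0.24 and -0.19 with 1 of 7 called. Loxl1, an oxidase that cross-links elastin, ran from -0.92 to -0.18 at the high dose (median -0.60, mean -0.54 ± 0.27, SD, n = 9) and from -0.97 to 0.16 at the low dose (mean -0.42 ± 0.30, adjusted p = 0.0115 by limma, below air in 8 of 9 samples). Fbn1, which encodes the microfibril protein fibrillin-1, split into 3 high-dose values between -0.86 and -0.69, at 7 weeks, 2 and 6 hours and 13 weeks, 2 hours, and 6 between -0.43 and -0.14 (mean -0.42 ± 0.29). In the low-dose samples Fbn1 ran from -0.69 to -0.01 (mean -0.27 ± 0.21, adjusted p = 0.0352 by limma, below air in 9 of 9).

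Postn, which encodes periostin, a matrix protein that binds integrins and collagen, ran from -0.56 to -0.12 (mean -0.36 ± 0.15) and at the low dose from -0.74 to -0.06 (mean -0.27 ± 0.21, adjusted p = 0.035 by limma). Col4a1, a chain of the basement membrane collagen, was narrow, from -0.45 to -0.15 (mean -0.33 ± 0.10), with low-dose values from -0.58 to -0.06 (mean -0.29 ± 0.16, adjusted p = 0.00989 by limma). Its relative Col4a3, of the alveolar basement membrane, stood at 0.11 ± 0.16 and -0.03 ± 0.14. Igfbp7, a secreted binding protein for insulin-like growth factors, stood at -0.37 ± 0.13 and -0.17 ± 0.16, and Ecm1, a secreted glycoprotein of the matrix, at -0.33 ± 0.16 and -0.15 ± 0.20; neither passed at the low dose (adjusted p = 0.118 and 0.218 by limma). Of the other 6 insulin-like growth factor binding proteins measured, high-dose means ran from -0.37 ± 0.39 for Igfbp1 to 0.19 ± 0.20 for Igfbp5. Igfbp7 overlaps Polr2b, a subunit of RNA polymerase II, in the RefSeq genome, and Polr2b stood at -0.06.

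Of 18 fibroblast and mesenchymal markers with 9 high-dose values, 4 met the threshold (Loxl1, Fbn1, Postn and, left out by name, the collagen Col5a2). The list's median was -0.28 at the high dose and -0.22 at the low dose. At the low dose limma called 8 of 19 lower, against 53 of 4090 genes (1.30%), and 0 higher. The 5 called that are not members were Col5a2 (-0.35), Col3a1 (-0.36), the microfibril protein Mfap5 (-0.27), the secreted signal Wnt5a (-0.46) and dermatopontin, Dpt (-0.24), as low-dose means. Dcn and Fbln1 of the same list had high-dose means of -0.07 ± 0.56 and 0.00 ± 0.12. For collagens and fibril assembly the medians were -0.16 and -0.20, with 5 of 18 called lower at the low dose. Among those 5, Loxl1, Col3a1 and Col5a2 also stand on the fibroblast list, so the 2 counts overlap. No cell type marker list other than those of T and natural killer cells, B cells, fibroblasts and nerve cells held a member. On the macrophage and neutrophil lists, Adgre1 and Retnlg met the threshold and were left out by name. They stood at -0.72 ± 0.20 and -0.43 ± 0.25 at the high dose, and at -0.45 and -0.15 at the low dose. The low-dose mean of Adgre1 was called lower (adjusted p = 0.00229 by limma).

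Adhesion, cytoskeleton and scaffold proteins were the second largest group, with 12 genes and a median of -0.31 at the high dose against -0.17 at the low dose. Septin5, a filament-forming GTPase of vesicle release, stood well below air at both doses. Its high-dose values ran from -0.81 to -0.29 (median -0.54, mean -0.55 ± 0.18, SD, n = 9) and its low-dose values from -0.62 to -0.20 (mean -0.41 ± 0.14, adjusted p = 0.000781 by limma, below air in 9 of 9). Septin2, Septin3 and Septin7 had high-dose means between -0.16 and -0.06. S100a4, a calcium-binding protein of motile cells, ran from -0.86 to -0.12 (median -0.51, mean -0.48 ± 0.25), and from -0.71 to 0.25 at the low dose (mean -0.29 ± 0.30, adjusted p = 0.075 by limma). Other S100a genes differed in sign, from S100a16 at -0.15 ± 0.14 to the neutrophil protein S100a9 at 1.43 ± 1.63, whose values ran from -1.47 to 3.32.

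Akap12, a scaffold that anchors protein kinases A and C, ran from -0.79 to -0.07 at the high dose (median -0.42, mean -0.45 ± 0.24) and from -0.97 to -0.10 at the low dose (mean -0.43 ± 0.33, adjusted p = 0.014 by limma, below air in 9 of 9). Its values at 6 hours were the nearest to air in each exposure length at both doses. Pcdh17, a protocadherin, ran from -0.79 to -0.09 (mean -0.40 ± 0.29) and from -0.58 to 0.20 at the low dose (mean -0.19 ± 0.24). Fermt2 and Tln1, kindlin-2 and talin-1, which bind integrin tails and activate them, stood at -0.38 ± 0.17 and -0.24 ± 0.15, and at the low dose at -0.16 ± 0.19 and -0.17 ± 0.23. Among their partners, the integrin Itgb1 stood at 0.03 ± 0.15, the kinase Ilk at 0.02 ± 0.25 and vinculin, Vcl, at -0.07 ± 0.17. The integrins Itgb3, Itgb6 and Itgb7 each stood at -0.15 at the high dose (SD 0.30, 0.36 and 0.33). Ezr, the membrane to actin linker ezrin, and its partner Nherf2 both stood at -0.31 (SD 0.21 and 0.19), while the related scaffold Nherf1 stood above air, at 0.24 ± 0.19. Mprip, which targets myosin phosphatase to actin, was lower at the high than the low dose in 9 of 9 combinations, at -0.31 ± 0.13 and -0.10 ± 0.16. Anxa6, a membrane-binding annexin, stood at -0.25 ± 0.12 and -0.19 ± 0.17, where Anxa1 stood at 0.33 ± 0.11 at the high dose. The membrane-shaping proteins Ehd2 and Bin1 stood at -0.17 ± 0.09 and -0.20 ± 0.08 at the high dose, and at -0.07 ± 0.10 and 0.02 ± 0.16 at the low dose.

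Receptors and signalling proteins were the largest group, with 14 genes. Lrrn3, a leucine-rich repeat membrane protein known from neurons and T cells, ran from -1.0 to -0.27 at the high dose (median -0.54, mean -0.61 ± 0.26, SD, n = 9) and from -0.86 to -0.14 at the low dose. Its low-dose mean, -0.49 ± 0.24, was the lowest of the members (adjusted p = 0.00168 by limma, below air in 9 of 9). Ramp1, the accessory protein that makes the calcitonin receptor-like receptor a receptor for calcitonin gene-related peptide, ran from -0.79 to -0.34 (median -0.47, mean -0.51 ± 0.13), the narrowest spread among the 5 lowest members. The low-dose values of Ramp1 ran from -0.67 to -0.06 (mean -0.27 ± 0.19, adjusted p = 0.0234 by limma, 0.0578 at most with a sample removed). Calcrl, the receptor it joins, stood at -0.29 ± 0.29, and the other accessory proteins Ramp2 and Ramp3 at -0.10 ± 0.14 and -0.03 ± 0.57 at the high dose. Nrp1, a co-receptor for semaphorins and vascular endothelial growth factor, ran from -0.60 to -0.12 (mean -0.38 ± 0.21) and at the low dose stood at -0.24 ± 0.28; its relative Nrp2 stood at -0.00 ± 0.18.

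Prkcb, the beta form of protein kinase C, was the mean of 4 probes, whose high-dose means were -0.55, -0.18, -0.49 and -0.26; a pair of these probes had at least 1 value above air, so its place depends on averaging. Its mean was -0.37 ± 0.14 at the high dose and -0.21 ± 0.15 at the low dose, where Prkca stood at -0.08 ± 0.08 over 8 high-dose samples and Prkcd at -0.26 ± 0.32. The diacylglycerol kinases Dgkz and Dgka, which remove the lipid that activates protein kinase C, stood at -0.34 ± 0.13 and -0.20 ± 0.14 at the high dose, and at -0.19 ± 0.21 and -0.10 ± 0.16 at the low dose. Phospholipase Plce1, which makes that lipid, stood at -0.20 ± 0.13 and -0.08 ± 0.17. Of 32 genes of calcium and protein kinase signalling with 9 values, Prkcb and Plce1 alone met the threshold, and the list's median was -0.08.

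The receptor kinase Grk6, the GTPase regulators Git2 and Arhgef1, and Npr1, the receptor for atrial natriuretic peptide, had high-dose means between -0.22 and -0.18 and low-dose means between -0.13 and -0.03. Nppa, which encodes that peptide, stood at 0.37 ± 0.73. The calcium sensor Vsnl1 stood at -0.28 ± 0.19 and -0.17 ± 0.19, and Dlk1, a membrane protein related to Notch ligands, at -0.26 ± 0.15 and -0.21 ± 0.25. Grin2c, a subunit of the NMDA glutamate receptor, had 8 high-dose values between -0.30 and -0.07 and one of -0.74 (mean -0.25 ± 0.20). In the low-dose samples it had the highest value of any member, 0.59 at 13 weeks, 2 hours, and a mean of -0.14 ± 0.34.

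Transcription and nuclear proteins gave 8 members with medians of -0.32 and -0.21. Nfe2, a transcription factor of platelet and red cell precursors, ran from -0.84 to -0.12 at the high dose (median -0.47, mean -0.46 ± 0.25, SD, n = 9) and from -0.79 to 0.03 at the low dose (mean -0.40 ± 0.26, adjusted p = 0.00808 by limma, below air in 8 of 9). Its relative Nfe2l2, which drives the oxidative stress response, stood at 0.19 ± 0.34. Hoxa2, a homeobox factor of embryonic patterning, ran from -0.86 to -0.10 (median -0.40, mean -0.42 ± 0.21), and from -0.79 to -0.14 at the low dose (mean -0.37 ± 0.20, adjusted p = 0.00456 by limma, below air in 9 of 9). The other 10 Hox genes measured had high-dose means between -0.06 and 0.11. Lmo2, an adaptor in blood and endothelial transcription complexes, stood at -0.33 ± 0.17 and -0.22 ± 0.14 (adjusted p = 0.0416 by limma, a call kept in 2 of 9 fits with a sample removed).

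Hnrnpr, an RNA-binding protein, stood at -0.35 ± 0.17 and -0.22 ± 0.17, and Mef2a, a factor of muscle and vessel genes, at -0.32 ± 0.23 and -0.16 ± 0.17, with its relative Mef2d at -0.01 ± 0.20. The chromatin remodeller subunit Ino80b stood at -0.26 ± 0.19 and -0.15 ± 0.11 and was below air in all 18 samples, without passing at the low dose (adjusted p = 0.118 by limma). Tcf4, a basic helix-loop-helix factor, stood at -0.25 ± 0.15 and -0.15 ± 0.19, and the zinc finger gene Zfp386 had equal means of -0.21 at both doses. Of 34 developmental transcription factors with 9 values, Hoxa2, Mef2a and Tcf4 met the threshold, and the median of that list was -0.00.

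Enzymes gave 7 members. Lipe, hormone-sensitive lipase, which releases fatty acids from stored fat, was the mean of 2 probes at -0.57 and -0.39. Its high-dose values ran from -0.76 to -0.16 (median -0.46, mean -0.48 ± 0.20, SD, n = 9) and its low-dose values from -0.47 to 0.00 (mean -0.29 ± 0.17, adjusted p = 0.0115 by limma). Lipoprotein lipase, Lpl, which takes fatty acids up from lipoproteins, stood at 0.65 ± 0.30, and the list of lipid and steroid metabolism had a median of 0.07. Abhd17c, which removes palmitate from proteins, ran from -0.86 to -0.09 (mean -0.38 ± 0.29) and stood at -0.20 ± 0.29 at the low dose.

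Ugt1a2, a glucuronosyltransferase, stood at -0.32 ± 0.20 and -0.19 ± 0.32. Of the same family at the high dose, Ugt1a6 and Ugt1a7c stood at 0.49 ± 0.26 and 0.52 ± 0.38. Ugt1a3 stood at 0.16 ± 0.17 over 7 high-dose samples, and Ugt1a1 at -0.10. These genes overlap in the RefSeq genome and near-identical sequence can be shared between their probes, so the assignment of a signal to Ugt1a2 is uncertain. Cyp4a1, a fatty acid hydroxylase, stood at -0.24 ± 0.14 and -0.19 ± 0.17 on the mean of 2 probes, and 1 of those had only 3 high-dose values, with a mean of -0.04. Of the other Cyp4 genes at the high dose, Cyp4b1 stood lower, at -0.55 ± 0.20, while Cyp4a8 stood at 0.02 ± 0.17 and Cyp4f6 at 0.13 ± 0.20. Fmo4, a flavin monooxygenase, stood at -0.19 ± 0.10 and -0.13 ± 0.14. Of its relatives at the high dose, Fmo1 stood lower, at -0.33 ± 0.17, while Fmo2 and Fmo5 stood at 0.42 ± 0.53 and 0.31 ± 0.17. Of 34 genes with 9 values on a list of xenobiotic and retinoid metabolism, Cyp4a1 and, left out by name, Cyp4b1 met the threshold. That list did not hold Ugt1a2 or Fmo4. Bst1, an enzyme that makes cyclic ADP-ribose, and Nxn, a redox protein of the thioredoxin family, stood at -0.23 ± 0.21 and -0.18 ± 0.08 at the high dose.

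The last 8 genes belong to membrane, ubiquitin and trafficking proteins. Mal, a raft protein of T cells, myelin and epithelial apical transport, was the lowest of the 64 at the high dose. Its high-dose values ran from -1.15 to -0.23 (median -0.56, mean -0.66 ± 0.29, SD, n = 9), which is 0.633 times air. Low-dose values of Mal ran from -0.92 to 0.04 (mean -0.38 ± 0.29, adjusted p = 0.0157 by limma, below air in 8 of 9 samples). Maged2 stood at -0.32 ± 0.24 and -0.21 ± 0.19. The ubiquitin ligases Marchf2 and Rnf215, the endoplasmic and Golgi membrane protein Zfyve1, Npdc1, the secretory granule chaperone Scg5 and the GTPase-like Rabl6 had high-dose means between -0.27 and -0.15. Their low-dose means lay between -0.09 and -0.02, and none passed at the low dose.

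Near the limit of the rule, 16 members had a highest high-dose value of -0.06, and 39 had one above -0.10. Arhgef1, Cyp4a1 and Dgka were just inside, at -0.06, with means of -0.22, -0.24 and -0.20. Just outside were Angptl2, whose highest value was -0.05, and Gimap8 and Plcg2 at -0.04, with means of -0.20, -0.15 and -0.22.

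In each pair with a common fresh-air pool, the ratio at the high dose minus that at the low dose leaves out the pool. The mean of the 9 differences was below 0 in 64 of 64 genes, with a median of -0.13, against 0.01 ± 0.11 (median and SD) over 3560 genes with 18 values; since the high-dose values chose the genes, a lower high dose is built in and is given with no test. The differences were most negative for Ms4a1 (-0.41 ± 0.44, SD, n = 9 pairs), Klrd1 (-0.33 ± 0.36), Cd37 (-0.29 ± 0.23) and Lck (-0.29 ± 0.25), all of them lymphocyte genes. Mal followed at -0.28 ± 0.23. They were least negative for Zfp386 (-0.00 ± 0.18), Akap12 (-0.02 ± 0.23), Bst1 (-0.02 ± 0.22) and Ctla4 (-0.02 ± 0.18). By role, the median difference was -0.29 for lymphocyte genes, -0.16 for adhesion, cytoskeleton and scaffold proteins, -0.14 for matrix genes and -0.11 for enzymes and for nuclear proteins. Cd37, Mprip and Zfyve1 were lower at the high dose in 9 of 9 pairs; Zfyve1 had a difference of -0.19 ± 0.07. Among combinations, the members' median difference ran from -0.08 at 13 weeks, 2 hours, where 39 of 64 genes were lower at the high dose, to -0.20 at each of the 7 week times and at 13 weeks, 20 hours.

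**Figure D3:**
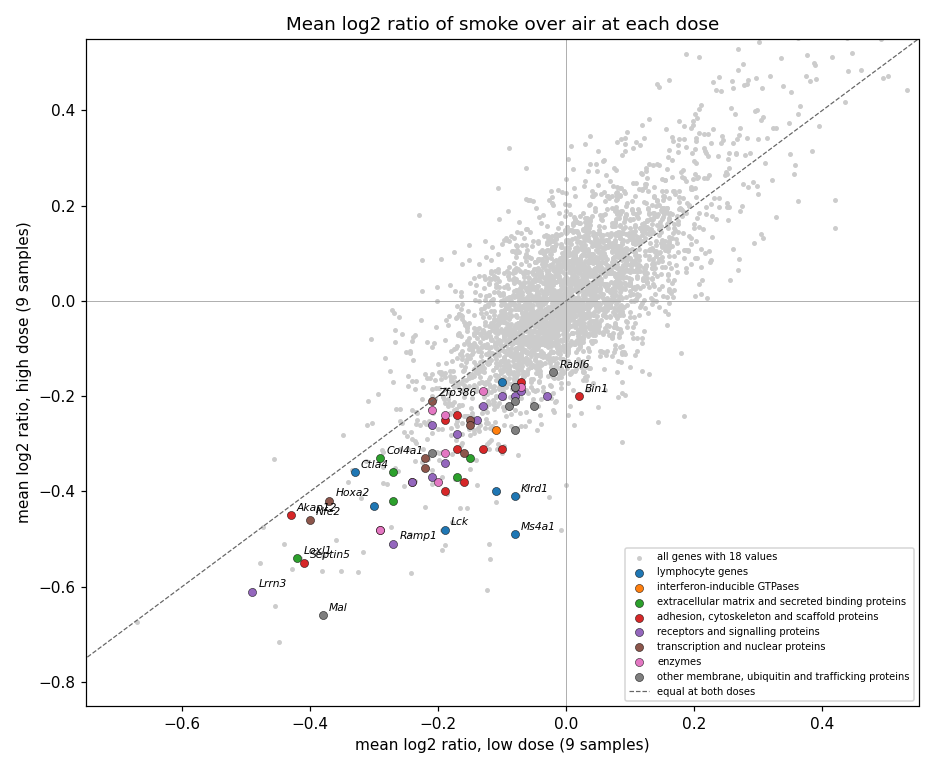
Mean log2 ratio over 9 samples at the low dose (horizontal axis) and at the high dose (vertical axis); grey points are 3560 genes with 18 values and coloured points the 64 genes by role, with the dashed line where both doses are equal. The 64 genes lie on or below the line, and Ms4a1 (-0.08, -0.49) and Klrd1 (-0.08, -0.41) lie farther from it than Akap12 (-0.43, -0.45) and Hoxa2 (-0.37, -0.42).

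Over time, the members' medians were lowest 2 hours after the last exposure. Their median log2 ratio was -0.39, -0.28 and -0.25 at 2, 6 and 20 hours at the high dose and -0.27, -0.14 and -0.14 at the low dose. The 2 hour mean was the lowest of the 3 in 37 of 64 genes at the high dose and in 39 at the low dose. The share over all genes was not counted, so these counts cannot be read as particular to the members. Beside this, the SD over all genes was 0.30, 0.35 and 0.34 in the 3 high-dose samples at 2 hours and 0.24, 0.26 and 0.30 in those at 20 hours. In the low-dose samples that SD was 0.28, 0.32 and 0.36 at 2 hours and 0.20, 0.28 and 0.23 at 20 hours. Genes chosen as low can lie lowest where the spread is widest, and the part of this in the medians was not tested. In the low-dose samples limma's F test over hours, with weeks as a covariate, called 19 of 4082 genes, 0.465%, and 0 of the 64 members. At an unadjusted p under 0.05 it found 9 members and 398 genes in all (9.75%). An alternative over the means of both doses, which uses the selecting values, called 64 of 3994 genes (1.60%). Among them was 1 member, Ugt1a2 (adjusted p = 0.0394 by limma).

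Akap12 had the widest low-dose range over hours, with means of -0.82, -0.13 and -0.35 at 2, 6 and 20 hours (adjusted p = 0.111 by limma). At the high dose its means were -0.60, -0.19 and -0.55. Ugt1a2 had low-dose means of -0.53, -0.19 and 0.14 (adjusted p = 0.193 by limma) and high-dose means of -0.55, -0.23 and -0.17, so it was nearest to air at 20 hours at both doses. Gbp5 had low-dose means of -0.66, -0.05 and -0.01 (adjusted p = 0.184 by limma), and Scg5 of -0.37, 0.25 and -0.11 (adjusted p = 0.165 by limma). S100a4 had -0.54, -0.35 and 0.02, and at the high dose -0.58, -0.68 and -0.19. Mal and Lrrn3, the lowest members, had 2 hour means of -0.96 and -0.94 at the high dose, and at 6 hours -0.41 and -0.43.

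Over weeks, the members' medians were -0.23, -0.34 and -0.32 after 2, 7 and 13 weeks at the high dose and -0.15, -0.15 and -0.20 at the low dose. The F test over weeks in the low-dose samples, with hours as a covariate, called 1 of 4082 genes, 0.0245%, and 0 of the 64 members by limma; 3 members and 270 genes in all (6.61%) had an unadjusted p under 0.05. The widest low-dose ranges were those of Rnf215, with means of 0.16, -0.02 and -0.40 after 2, 7 and 13 weeks, Grin2c, with -0.22, -0.37 and 0.16, Nfe2, with -0.67, -0.35 and -0.18, and Lck, with a range of 0.44. Adjusted p by limma was 0.66 for Rnf215, 0.753 for Grin2c and 0.65 for Nfe2. At the high dose Rnf215 had means of -0.27, -0.21 and -0.18, an order opposite to that of the low dose. Fbn1 stood at -0.19, -0.54 and -0.53 at the high dose.

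**Figure D4:**
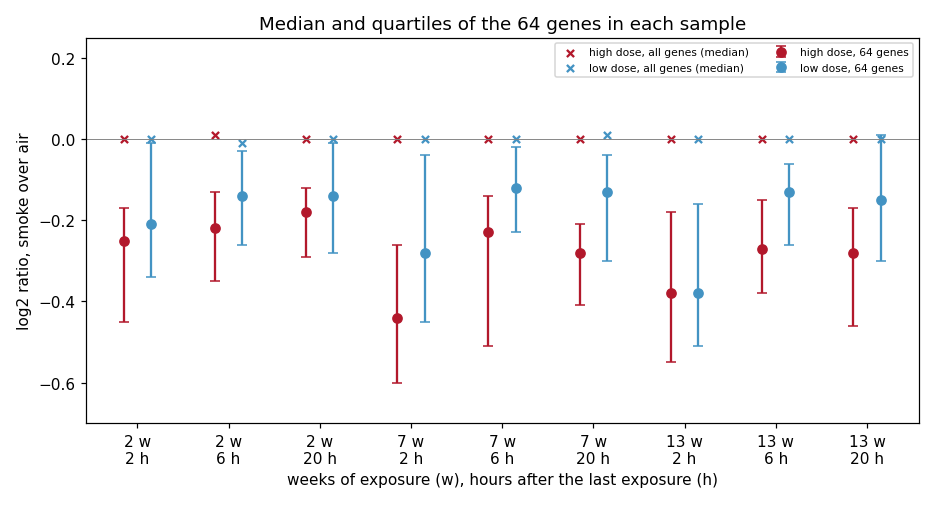
Points are the median log2 ratio of the 64 genes in each sample with quartiles as bars (vertical axis), by weeks of exposure and hours after it (horizontal axis); crosses are the median of 3560 genes. Medians of the 64 genes run from -0.44 to -0.18 at the high dose and from -0.38 to -0.12 at the low dose, both lowest at 2 hours after 7 or 13 weeks, while all genes lie within 0.01 of 0.

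The members lay on 20 chromosomes. Only 3 pairs lay within 1 Mb of each other in the RefSeq genome, Arhgef1 with Lipe, Npdc1 with Rabl6 and Npr1 with S100a4. Tln1 overlaps Creb3, which stood at 0.01 at the high dose.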

How the data were processed

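Lung RNA of 18 samples was compared with fresh-air lung RNA on 2-colour PIQOR arrays. The authors deposited 1 table of log2 ratios with 11994 rows; per the labels, RNA of 4 rats was pooled, amplified, labelled with Cy5 (smoke) or Cy3 (air) and divided over 2 arrays. No label names the scanner, background correction or normalization (not given in the sources used here). Every probe stands on a pair of rows whose values differ by at most 0.01; the pairs were merged into 5997 probes, 4829 of them with a gene symbol, and 6.56% of values came from 1 row of the pair. Of 4616 genes, 128 have more than 1 probe, which were averaged.

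Tests used limma 3.58.1 in R 4.3.3 (lmFit, eBayes, two-sided, Benjamini-Hochberg over all genes with at least 6 low-dose values, threshold 0.05), and were tested on simulated data. With 1 pool per condition, the error behind p is the spread between combinations of weeks and hours, which holds real change over time. Named genes are the 15 lowest members, those nearest the threshold, those with the most or least negative dose difference or the widest ranges over time, and list members; the other members and relatives by gene name, and the grouping by role, were added after their values were seen. The members, 43 gene lists and 8 motifs were chosen with earlier results of these data known. Tables, upstream sequences (RefSeq, GRCr8) and figures used Python 3.11.15 with pandas 2.3.3 and matplotlib 3.10.9. Alternatives covered the threshold, centring, probes, fewer samples, other limma settings and a sign-flip test.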

Additional observations from a re-analysis of the deposited data

Results flagged for a closer look

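Among 128 sets of 9 values (64 genes at 2 doses), 12 held a value set apart from the other 8 by a gap larger than Dixon's criterion allows for 9 values; chance flags about 1 in 20 sets where values are not selected. The rule held the 64 high-dose sets below -0.05, so that rate does not apply to them, and the 5 high-dose values are given as a description.

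A first set lay at 7 weeks, 2 hours at the high dose. The tetraspanin Cd37 stood at -1.03 there, against -0.56 to -0.17 in the other samples, Bst1 at -0.71 against -0.38 to -0.07, and the glutamate receptor subunit Grin2c at -0.74 against -0.30 to -0.07. The other high-dose values came from 6 hours: Dlk1 at -0.62 after 2 weeks (others -0.30 to -0.10) and the GTPase regulator Git2 at -0.60 after 7 weeks (others -0.32 to -0.06).

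Among the low-dose values, 4 of 7 were at 13 weeks, 2 hours. The diacylglycerol kinases Dgka and Dgkz stood at -0.47 (others -0.14 to 0.12) and -0.69 (others -0.25 to 0.07), the receptor kinase Grk6 at -0.40 (others -0.07 to 0.12), and Grin2c at 0.59 (others -0.51 to -0.01). The others were Npdc1 at -0.51 at 2 weeks, 6 hours (others -0.10 to 0.10), periostin, Postn, at -0.74 at 7 weeks, 6 hours (others -0.40 to -0.06), and the calcium sensor Vsnl1 at -0.60 at 7 weeks, 2 hours (others -0.25 to 0.07).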

How the results depend on the processing

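The number of genes depended on the threshold and on the number of samples asked for. It was 115 at a threshold of 0 and 25 at -0.10, and with fewer samples to satisfy it was 166 without the 2 week samples, 111 without the 13 week samples, and 123, 176 and 137 without the 2, 6 and 20 hour samples. An alternative chosen after seeing the data, values present on both rows of a probe, left 53 genes and lost Akap12, Cd37, Ecm1, Gbp5, Hoxa2, Klrd1, Maged2, Ms4a1, Pcdh17, Septin5 and Vsnl1. A separate alternative, every probe of a symbol below the threshold, left 61 genes and lost Cyp4a1, Ezr and Prkcb. The number of members called lower at the low dose was 15, against 53 genes in all. It was 0 with the exact sign-flip permutation test. Without the 2, 7 and 13 week samples, where fewer samples were fitted, it was 4, 5 and 3, against 26, 12 and 9 genes in all. With 1 low-dose sample removed it ran from 9 to 15, against 31 to 54 genes in all. The means of both doses gave 55, against 297 of 4016 genes (7.40%), but they hold the high-dose values that chose the members, so that count follows largely from the choice and supports nothing. Over hours 1 member passed with the means of both doses, against 0 otherwise. Re-centring, trend and robust settings, genes with all 9 values and a minimum of 1.2-fold gave 10 to 17 members, against 25 to 67 genes in all. Low-dose means near 0 changed sign: Bin1 (0.02) to -0.09 with both doses and to -0.01 without the 2 or 13 week samples, Rnf215 (-0.09) to 0.07 without the 13 week samples, Grk6, Plce1 and Rabl6 to 0.01 without the 13 week samples, and with 1 sample removed Bin1 ran from -0.01 to 0.05, Grk6 and Rabl6 from -0.05 to 0.01 and Ms4a1 from -0.15 to 0.01; the cause was not tested. The median dose difference stayed between -0.16 and -0.10. The dose difference is paired by fresh-air pool. With no replicate block, an alternative chosen after seeing the data, its median is -0.13 by construction, and the members' median SE is 0.086 against 0.072 when paired. Signal over background was not analysed here.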

Other observations

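Probes without a gene symbol were not part of the rule. Of 898 such probes with 9 high-dose values, 18 stood below -0.05 in each high-dose sample, and the lowest of them had mean log2 ratios of -0.85, -0.67 and -0.58 at the high dose and -0.33, -0.37 and -0.32 at the low dose. The first and second of these lie below the mean of Mal, the lowest named member, at -0.66. The genes behind these probes are not named here.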
